A study of Homo sapiens with 2 samples.

Results

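MiR-144, miR-451 and miR-486, the miRs that accompany red cell maturation, were examined in small RNA libraries of K562/ADM and K562 cells. All names in the deposited table were taken whose stem, after removal of the species prefix, of a final asterisk and of the arm suffix, was one of these 3 miRs. This rule found 6 of the 934 names, which were miR-144, miR-144*, miR-451, mir-451*, miR-486-5p and miR-486-3p. K562/ADM is an adriamycin-resistant derivative of K562 that was obtained by growing the cells in rising concentrations of adriamycin, an anthracycline, up to 1000 ng/mL and was then kept at 1000 ng/mL. K562, the parental line, comes from a human chronic myelogenous leukemia, is known for erythroid features and is given without any drug in the labels. Each line is represented by 1 library, so that no replicate check exists, and each comparison is of 2 libraries, not of 2 conditions. K562/ADM is moreover a single derived line. The totals were 6895193 miR reads for K562/ADM and 7677738 for K562.

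MiRs are short RNAs that guide Argonaute proteins to mRNAs through the seed, the bases near their 5' end. In the red cell lineage, the genes of miR-144 and miR-451 are transcribed together under the erythroid factor GATA1, and miR-451 is among the miRs that accumulate in maturing red cells. Most miRs are cut from their hairpin by Drosha and then Dicer, whereas the short hairpin of miR-451 skips Dicer, is cut by AGO2 and is trimmed, so that no regular passenger strand is made from it. MiR-486 is processed by Dicer from a hairpin inside ANK1, the gene of the red cell membrane protein ankyrin 1. MiR-451 has also been linked in other cancer cells to MDR1, which encodes the drug pump P-gp.

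The strands of the miR-144 hairpin are shown because the main contrasts below lie between them and miR-451. The deposited names do not state the strand. By the usual naming, which the files could not check, miR-144 was taken as the 3' strand and miR-144* as the 5' strand, and the sequences shown rest on this. Capitals mark the seed, bases 2 to 8, in these mature sequences from RefSeq (GRCh38.p14). MiR-101 was added because its seed comes closest to that of miR-144 among the names compared below.

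miR-144: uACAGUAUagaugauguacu

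miR-144*: gGAUAUCAucauauacuguaag

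miR-101: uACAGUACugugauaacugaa

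In the RefSeq hairpin of miR-144, 86 nt long, capitals mark miR-144* at bases 15 to 36 and miR-144 at bases 52 to 71, counted from the 5' end.

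miR-144 hairpin: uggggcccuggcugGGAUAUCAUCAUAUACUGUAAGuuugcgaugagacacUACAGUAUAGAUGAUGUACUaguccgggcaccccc

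The loop between the strands has 15 bases. In a fold predicted with RNAfold, 18 of the 22 bases of miR-144* paired with miR-144. The hairpin had 1 exact match in GRCh37, on the minus strand at chr17:27188551-27188636. There it lies inside the exon of a lncRNA gene without a symbol that runs from 27188011 to 27189009 on the same strand. In the RefSeq gene order MIR451A is the neighbour of MIR144. MIR451A overlaps MIR451B, and MIR486-1 overlaps MIR486-2, so that reads of overlapping genes may not be separable. The deposited table gives each member name once, without telling such overlapping genes apart.

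All members but mir-451* were well expressed in both lines, and their order was the same in both. MiR-144* had 36808 reads in K562/ADM, against 44262 in K562, which is 5338 against 5765 in reads-per-million units (RPM, of all miR reads). It ranked 16th of the 934 names in K562/ADM and 15th in K562. MiR-451 had 19738 reads in K562/ADM, against 30470 in K562, or 2863 against 3969 RPM, and ranked 24th in both libraries. MiR-486-5p, the main strand of its hairpin, had 10404 reads in K562/ADM, against 15723 in K562, or 1509 against 2048 RPM, and ranked 41st in K562/ADM and 40th in K562. These 3 names, markers of the red cell lineage, were thus present at high levels in both lines.

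MiR-144, the strand usually taken as the functional one, had 6216 reads in K562/ADM, against 5564 in K562, or 901 against 725 RPM, and ranked 53rd in K562/ADM and 64th in K562. MiR-486-3p had 648 reads in K562/ADM, against 1047 in K562, or 94.0 against 136 RPM. The 95% interval of the scaled ratio, given below, excluded 1 for each of these 5 names. It did so for 92.9% of the 169 names with at least 1000 reads. The name mir-451* had 1 read in K562/ADM and 3 reads in K562. Together the 6 names took 1.07% of the reads in K562/ADM (95% interval 1.06 to 1.08, Clopper-Pearson) and 1.26% in K562 (1.26 to 1.27). These intervals cover counting error alone. Reads of different miRs also depend on how well each is captured in the library, which was not measured. In such bulk libraries fewer cells that carry a miR and less of it per cell cannot be told apart.

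**Figure D1:**
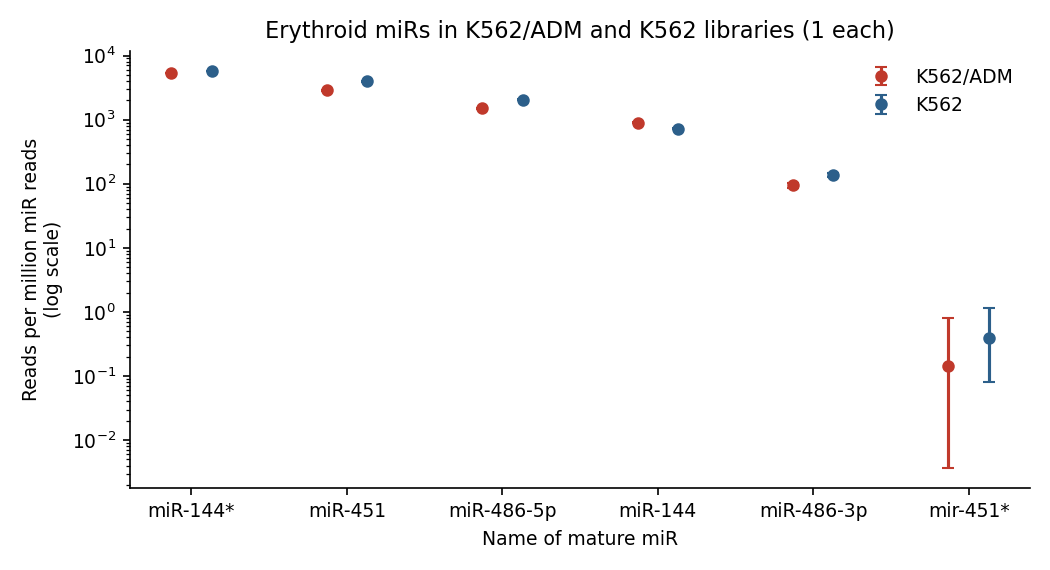
RPM (y axis, log scale) of the 6 names (x axis) in K562/ADM (red, left) and K562 (blue, right), 1 library each, with exact 95% counting intervals. From miR-144* at 5338 in K562/ADM and 5765 in K562 down to miR-486-3p at 94.0 in K562/ADM and 136 in K562, the names keep the same order in both libraries, and mir-451* rests on 1 read in K562/ADM and 3 in K562.

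After scaling by the median of ratios, none of the 6 names differed by 2-fold or more between the libraries with an interval that excluded 1. For miR-144, the reads in K562/ADM divided by those in K562 gave 1.37 (95% interval 1.32 to 1.42). MiR-144* stood near equality at 1.02 (1.00 to 1.03). MiR-451 was at 0.793 (0.779 to 0.808), miR-486-5p at 0.810 (0.790 to 0.831) and miR-486-3p at 0.758 (0.686 to 0.837), all of which lay above 1 under upper-quartile scaling. For mir-451* the ratio was 0.408, with an interval from 0.00778 to 5.08 that spans 1. Summed over each hairpin, the ratios were 1.06 (1.04 to 1.07) for miR-144, 0.793 (0.779 to 0.808) for miR-451 and 0.807 (0.788 to 0.827) for miR-486.

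For comparison, 15.6% of all 934 names were called lower in K562/ADM and 11.1% higher by the same rule of 2-fold and interval. Among the 169 names with at least 1000 reads, to which the 5 well expressed members belong, 21.9% were called lower and 11.2% higher. The quartiles of these 169 ratios were 0.546 and 1.37. The members lay between them, with 37.9% of the abundant names below miR-486-3p and 74.0% below miR-144. Of the 169 intervals, 92.9% excluded 1, as did those of the 5 members.

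The direction of most members depended on how the libraries were scaled. MiR-144 was above 1 under all 8 scalings tried, from 1.24 with total reads to 2.29 with the upper quartile, and it was called higher under the upper quartile alone. MiR-144* was above 1 under 4 of the 8 and lowest, at 0.926, with total reads. MiR-451 was below 1 except under the upper quartile, from 0.721 to 1.33, and so were miR-486-5p, from 0.737 to 1.36, and miR-486-3p, from 0.689 to 1.27. Upper-quartile scaling raised every log2 ratio by 0.74, and under it the table held 223 names called higher and 95 called lower. The higher share of the calls was then 70.1%, against 41.6% with the main scaling. Against miR-425, the internal reference of the study's PCR, miR-451 was at 0.730 (0.713 to 0.748), miR-486-5p at 0.746 (0.724 to 0.768) and miR-144 at 1.26 (1.21 to 1.31).

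**Figure D2:**
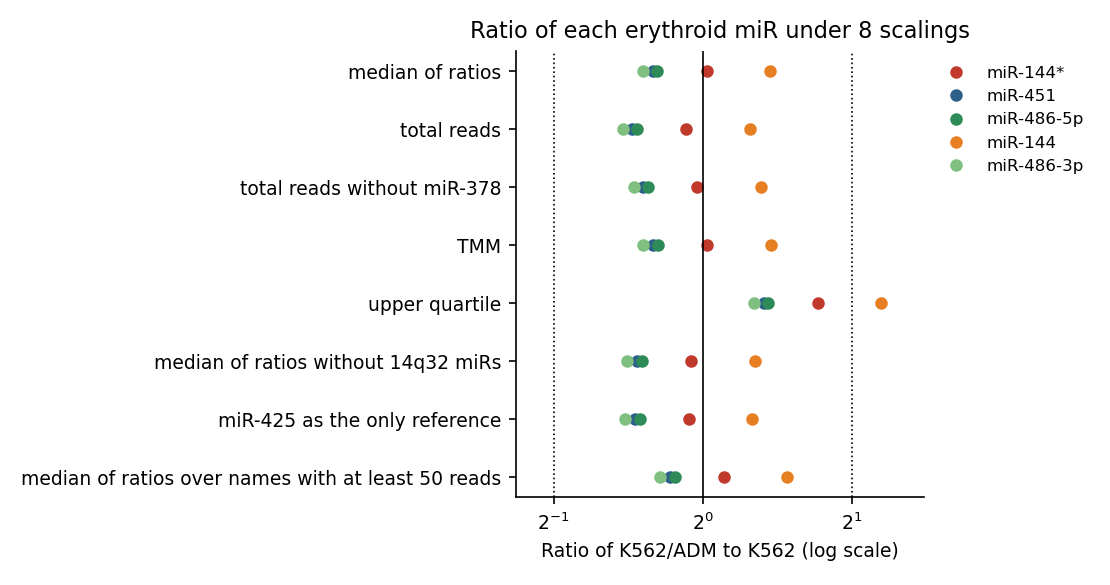
Ratio of K562/ADM to K562 (x axis, log scale) of the 5 names with at least 10 reads under each of 8 scalings of the libraries (y axis). The solid line marks equality and the dotted lines 2-fold differences. MiR-144 lies right of equality in every row, while miR-451, miR-486-5p and miR-486-3p lie left of it except under the upper quartile.

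The distances between the members do not depend on the scaling, since both names of a pair come from the same libraries. MiR-144 and miR-451 come from neighbouring genes but differed in their ratios. The library of K562/ADM held 3.18 reads of miR-451 for each read of miR-144, against 5.48 in K562. The ratio of miR-144 to miR-451 was thus 1.72-fold higher in K562/ADM (95% interval 1.66 to 1.80, exact conditional interval of the odds ratio), and the log2 ratio of miR-451 stood 0.79 under that of miR-144. The other strand of the same hairpin, miR-144*, was also higher relative to miR-451, by a smaller factor of 1.28 (1.25 to 1.31). With both strands of the miR-144 hairpin summed, the factor was 1.33 (1.30 to 1.36).

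To read this distance, the same difference was taken for other miR genes that neighbour each other within 10 kb and have at least 1000 reads each, a comparison chosen after the values of the members had been seen. Outside 14q32, the imprinted domain on chromosome 14 that holds many miR genes, there were 20 such pairs. Their ratios differed by a median of 0.48 on the log2 scale, which is 1.39-fold, and from 0.01 to 1.62. In 6 of these 20 pairs the distance was at least as large as the 0.79 between miR-144 and miR-451, among them miR-182 and miR-96 at 0.97 and miR-18a and miR-19a at 0.81. With the pairs from 14q32 added, 9 of 31 were as far apart. The distance between miR-144 and miR-451 was within the range of these other neighbours. Names with an asterisk were left out of all pairs, so that miR-144 entered by its less abundant strand. The distance to miR-451 was 0.36 for miR-144* and 0.41 with both strands summed, each under the median of 0.48.

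**Figure D3:**
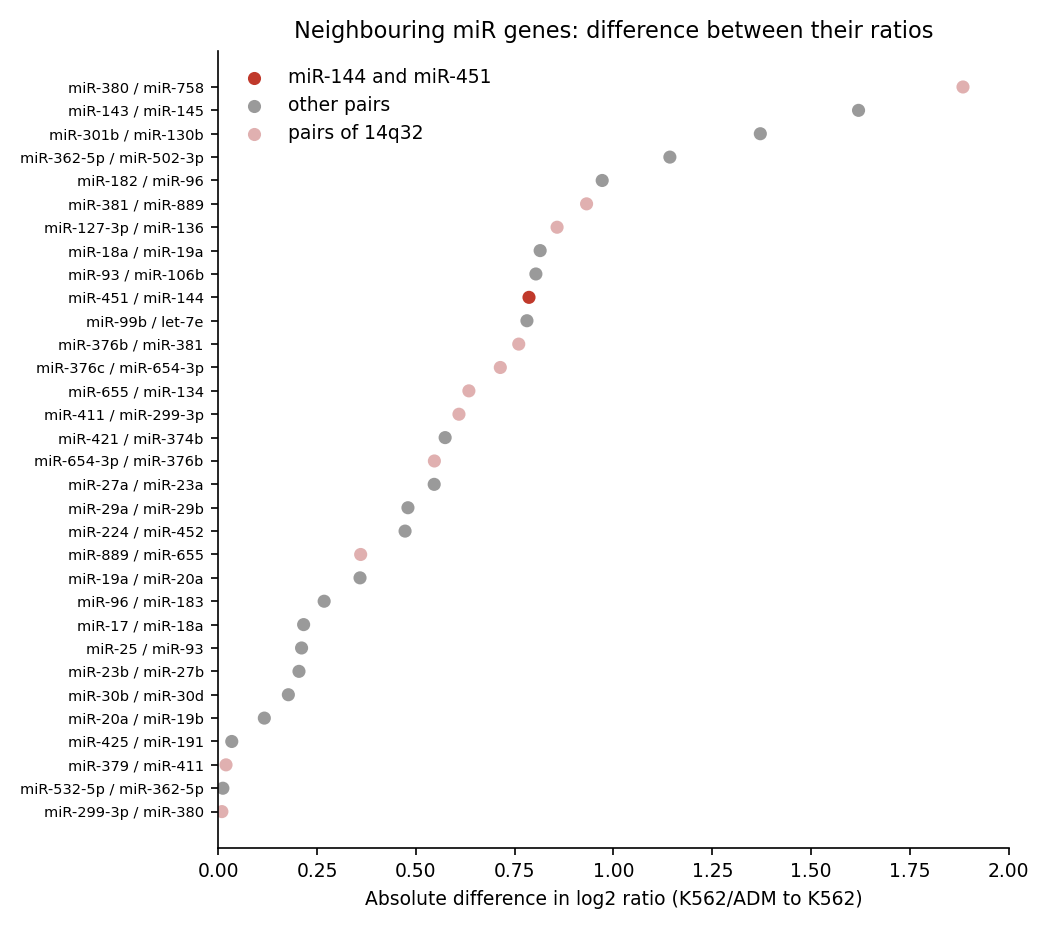
Absolute difference between the log2 ratios of K562/ADM to K562 (x axis) for pairs of neighbouring miR genes (y axis), sorted by size. Each point is 1 pair, red for miR-144 and miR-451, grey for the other pairs and pink for those of 14q32. The red point at 0.79 has 9 of the other 31 pairs above it. Names with an asterisk are left out, and the distance of miR-144* to miR-451, not drawn, was 0.36.

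MiR-451 and miR-486-5p, by contrast, kept a nearly fixed proportion. K562/ADM held 0.527 reads of miR-486-5p for each read of miR-451 and K562 held 0.516, a ratio between the libraries of 1.02 (95% interval 0.991 to 1.05). The genes of these miRs lie on different chromosomes. How often other names kept as close a proportion was not counted. Of the 169 names with at least 1000 reads, 68 had ratios below that of miR-451 and 70 below that of miR-486-5p. Relative to miR-486-5p, miR-144 was 1.69-fold higher in K562/ADM (1.62 to 1.76), near the factor found against miR-451. MiR-144 thus stood above both miR-451 and miR-486-5p, whichever scaling was used, while those stood together.

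The hairpins of the 3 miRs also differed in how their reads were divided between strands. In the miR-144 hairpin most reads came from the strand with the asterisk. MiR-144 held 14.4% of its hairpin's reads in K562/ADM (95% interval 14.1 to 14.8, Clopper-Pearson) and 11.2% in K562 (10.9 to 11.4). There were 5.92 reads of miR-144* for each read of miR-144 in K562/ADM, against 7.96 in K562. The odds of a read coming from miR-144 were 1.34-fold higher in K562/ADM (1.29 to 1.40).

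Among the 56 hairpins with 1 name with and 1 without an asterisk and at least 50 reads of each, the strand with the asterisk was the more abundant in both libraries in 6. MiR-144 had the highest share of such reads in K562, 88.8%, and the 2nd highest in K562/ADM, 85.6%. There it was passed by miR-376a of 14q32, with 87.5%, which rests on 10 reads of miR-376a and 70 of miR-376a*. The other 4 were miR-374a, miR-625, miR-223 and miR-335. The same was taken over 72 other hairpins outside 14q32, with at least 50 reads of each strand over both libraries. Their odds of the strands differed between the libraries by a median of 1.45-fold, and in 45 of them by at least as much as in miR-144. Some of them have far fewer reads than miR-144, such as miR-3681* with 51 in K562/ADM and 2 in K562, so that counting error adds to this spread.

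The miR-486 hairpin had the usual division, with few reads on its 3' strand. MiR-486-3p held 5.86% of the reads in K562/ADM (95% interval 5.43 to 6.32) and 6.24% in K562 (5.88 to 6.62). The odds ratio between the libraries was 0.935 (0.844 to 1.04), so that a difference in strand use was not detectable at this depth. Both strands had ratios below 1 to a similar extent, and above 1 under the upper quartile. Of the 72 other hairpins, some of them with few reads, 66 differed by at least as much.

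**Figure D4:**
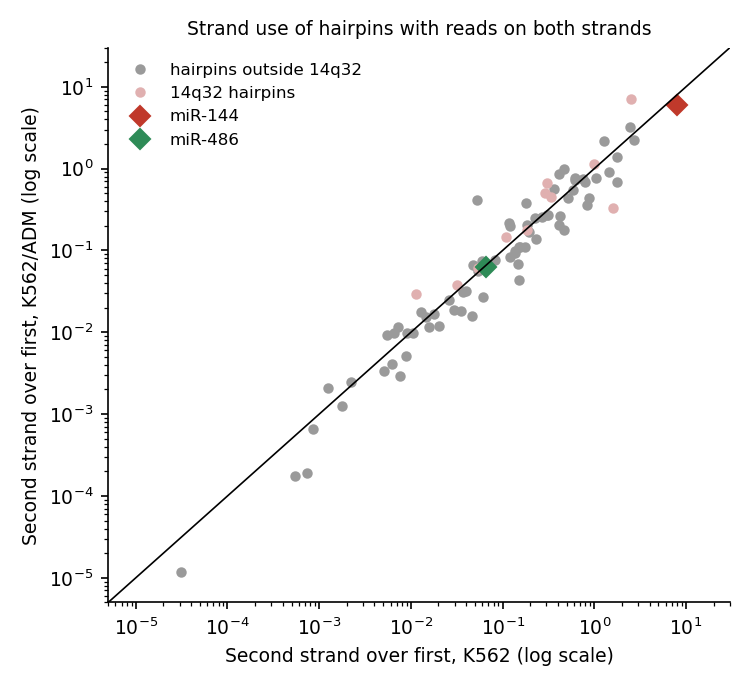
Reads of the second strand divided by reads of the first strand of each hairpin for K562/ADM on the y axis and K562 on the x axis, each on a log scale, for 87 hairpins that had 50 or more reads of each strand over the libraries. The second strand is the name with an asterisk or, for names with arm suffixes, the less abundant arm. Hairpins of 14q32 are pink, others grey, and the line marks equal values. MiR-144 (red) lies at 5.92 in K562/ADM and 7.96 in K562, and miR-486 (green) at 0.0623 in K562/ADM and 0.0666 in K562.

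MiR-451 had next to no reads under its second name. The name mir-451* made up 0.00507% of the reads of its stem in K562/ADM (95% interval 0.000128 to 0.0282, Clopper-Pearson) and 0.00984% in K562 (0.00203 to 0.0288). The authors left out sequences seen once before mapping, and the effect of this on such low counts was not tested. What the asterisk marks in names spelled mir is not stated in any source used, and these reads were not assigned to a strand. Of the 58 names without an asterisk and with at least 10000 reads over both libraries together, 46 had at least 1 more name of the same stem. For these 46, the other names made up a median of 0.739% of the reads of the stem in K562/ADM and 0.741% in K562. By this share miR-451 was the 6th lowest of the 46 in K562/ADM and the 4th lowest in K562. In both libraries miR-182, miR-378 and miR-381 lay below it, and in K562/ADM so did miR-134 and miR-379, which like miR-182 and miR-381 had 0 reads there under other names. In K562/ADM, however, miR-134 had only 464 reads, miR-379 123 and miR-381 1252. These are too few to resolve a share as low as that of miR-451, so the rank of miR-451 in K562/ADM is uncertain. In K562 the share of miR-451 rests on 3 reads of mir-451*. Its interval takes in the shares of miR-378, 0.00311%, and miR-381, 0.00467%, so the rank there is uncertain too.

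The seed of miR-144 has a counterpart in miR-101, which matches it at bases 2 to 7. The seeds were compared over 2370 mature names of RefSeq, from which those of chromosome 8 had been left out. Among these, 0 others share bases 2 to 8 with miR-144 or with miR-144*, and miR-101 alone shares bases 2 to 7 with miR-144. MiR-101, known as a repressor of EZH2, was far more abundant, with 91380 reads in K562/ADM and 81592 in K562. Its ratio was 1.37 (95% interval 1.36 to 1.38). There were 14.7 reads of miR-101 for each read of miR-144 in K562/ADM and 14.7 in K562, and the ratio of miR-144 divided by that of miR-101 was 0.998 (0.961 to 1.04). MiR-301b, which does not share this seed, also had a ratio of 1.37 (1.32 to 1.42). How often other names matched miR-144 as closely was not counted. The passenger strand miR-101* had 16 reads in K562/ADM and 45 in K562 and was called lower, 2.30-fold (1.27 to 4.35), a call that ended under the upper quartile at 1.37-fold lower (0.761 to 2.60). Under that scaling miR-101 was called higher, as miR-144 was.

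Other miRs of red cell development were compared through 2 lists, matched by the same stems. The first held 8 miRs that rise or are abundant in maturing red cell precursors. Of its 16 names, 1 was called lower in K562/ADM, 0 were called higher and 15 were not called, against 15.6% of all names called lower and 11.1% called higher. Under the upper quartile 0 were called lower and 8 higher, miR-15a, miR-16, miR-22 and miR-96 among them, where 223 of all 934 names were called higher. The 13 names with 10 or more reads had a median log2 ratio of 0.50, with 9 above and 4 below equality, beside a median of -0.08 over the 604 names of the table with as many reads. This list median stayed above 0 under all scalings, from 0.37 to 1.25. In this list and in the others, some names belong to the same hairpin, such as miR-185 and miR-185*. The counts of names are therefore not counts of independent miRs. MiR-96 had 15601 reads in K562/ADM and 10911 in K562, a ratio of 1.75 (95% interval 1.71 to 1.79). MiR-15a, which acts with miR-16 on MYB, had 4228 reads in K562/ADM and 3129 in K562, and stood at 1.65 (1.58 to 1.73). MiR-16 was at 1.48 (1.45 to 1.51), with 19707 reads in K562/ADM and 16322 in K562.

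MiR-22 had 790 reads in K562/ADM and 487 in K562 and stood just inside 2-fold at 1.99 (95% interval 1.77 to 2.23), and was called higher with size factors from names with at least 50 reads, at 2.15 (1.92 to 2.41). MiR-185 was at 1.10 (1.08 to 1.13) and miR-182 at 0.893 (0.885 to 0.901). The name of this list called lower was miR-210, the miR of the hypoxia response, with 987 reads in K562/ADM and 2764 in K562, 2.29-fold lower (2.13 to 2.46). This call too ended under the upper quartile, at 1.37-fold lower (1.27 to 1.47). MiR-363 had 1 read in K562/ADM and 0 in K562, for which a floor of 3 reads gives no fold. MiR-22* was at 1.42 (1.03 to 1.95), while the intervals of miR-15a*, at 1.56 (0.964 to 2.54), and miR-185*, at 1.22 (0.788 to 1.90), spanned 1.

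The second list held 7 miRs that fall as red cell precursors mature or hold maturation back. MiR-150 and miR-155 are not listed under those names. Of the 9 names of the other 5 miRs, 0 were called lower and 1, or 11.1%, was called higher, the same share as over all names. The 7 names with 10 or more reads had a median log2 ratio of -0.39, with 5 below and 2 above equality. It ranged from -0.52 to 0.36 over the scalings and the read minimum of 50, and was above 0 under the upper quartile. The name called higher was miR-24, with 17093 reads in K562/ADM and 8669 in K562, 2.41-fold higher (95% interval 2.35 to 2.48), and it was called higher under all 8 scalings. With the main scaling miR-103 was at 0.758 (0.740 to 0.777). The strands of miR-223, a myeloid miR, were at 0.891 (0.828 to 0.959) and, for miR-223*, 0.699 (0.658 to 0.742). MiR-221* was at 0.649 (0.518 to 0.810). MiR-221 had 11 reads in K562/ADM and 12 in K562, and miR-222 had 1 in K562/ADM and 5 in K562, so that this pair of KIT repressors was near the limit of detection in both lines.

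**Figure D5:**
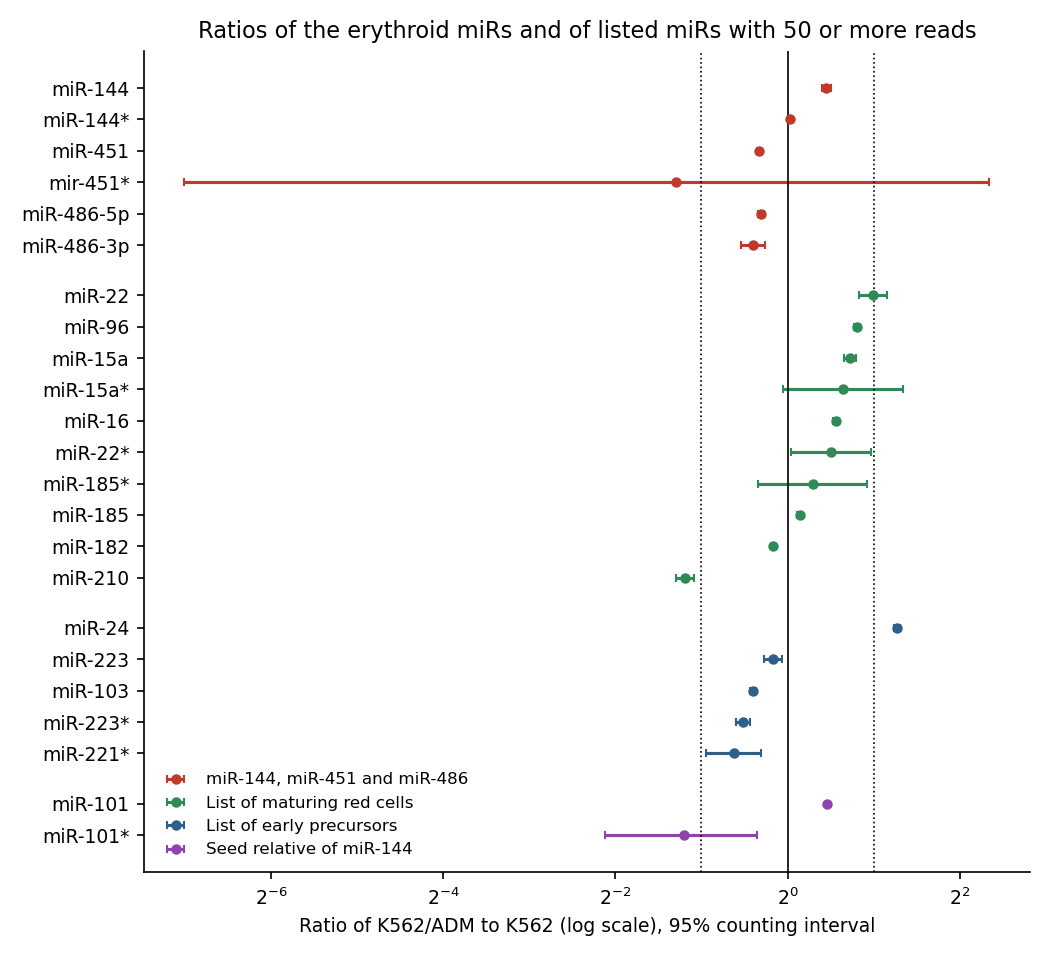
Ratio of K562/ADM to K562 (x axis, log scale) with exact 95% counting intervals for the 6 member names (red) and, with at least 50 reads, the lists of maturing red cells (green) and early precursors (blue) and miR-101 with its passenger strand (purple). The solid line marks equality and the dotted lines 2-fold. Members other than mir-451* lie between the dotted lines, miR-210 and miR-101* lie left of them and miR-24 lies right of them. The scaling is the median of ratios, and under the upper quartile miR-451 and both strands of miR-486 lie right of equality and miR-210 and miR-101* between the dotted lines.

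By their scaled levels in both libraries, taken as the distance of log2(scaled reads + 1), the names closest to the members were other abundant miRs. MiR-144 was closest to miR-27b, at 0.09, and to miR-301b, at 0.11. MiR-144* was closest to miR-106b, at 0.26, and to miR-183, at 0.37. MiR-451 was closest to miR-93, at 0.16, and to miR-17*, at 0.23, with ratios of 0.737 (95% interval 0.724 to 0.751) and 0.827 (0.811 to 0.843). MiR-486-5p was closest to miR-103, at 0.08, and to miR-30e*, at 0.53. MiR-486-3p was closest to miR-27a*, at 0.09, and to let-7g, at 0.15. With 2 libraries such closeness describes level and ratio and nothing more.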

How the data were processed

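Small RNA of K562/ADM and K562, 1 library each, had been sequenced as 36-base reads. The authors collapsed the reads to unique sequences, left out those seen once, removed the adapter and mapped the rest with Bowtie in miRanalyzer to miRBase 16. The submitters' processing notes also name CASAVA 1.7.0, DESeq and hg18. The deposited signal is the read count of each mature miR divided by a DESeq size factor. The deposited fold ratio, its log2 and the deposited DESeq p-values are the authors' own comparison and were not used.

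Whole reads were recovered as multiples of the smallest value above 0 in each column, and 100% came out whole within 0.001. Ratios were scaled by the median of ratios over 709 names. Intervals are exact 95% intervals, Clopper-Pearson for shares and ratios and conditional for odds ratios, and cover counting error only. With 1 library per line no residual degrees of freedom remain, and no count model was used. A name was called at 2-fold with an interval excluding 1. The procedures were tested on data simulated with counting error alone, which cannot test for spread between libraries.

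Members and lists were chosen with earlier results of these data known. All member names are given, with list names of at least 50 reads, miR-425, miR-378 and the 2 names nearest to each member with at least 10 reads. Exceptions named after their values were seen are the hairpins and pairs set beside miR-144 and miR-451, and miR-221, miR-222 and miR-363 with few reads. MiR-378 held 53.1% of the reads in K562/ADM and 50.6% in K562. Alternatives were other scalings, read minimums, call rules, 1 added to scaled values and summed names. TMM and upper-quartile factors came from edgeR 4.0.16 in R 4.3.3. All else ran in Python 3.11.15 with scipy 1.17.1, numpy 2.4.6, pandas 2.3.3 and, for figures, matplotlib 3.10.9. Hairpins were folded with RNAfold.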

Additional observations from a re-analysis of the deposited data

How the results depend on the processing

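The median ratio of the 5 member names with at least 10 reads, 0.810, was 0.737 with total reads, 0.775 with total reads without miR-378, 0.754 without 14q32 miRs, 0.746 with miR-425 as reference, 0.877 over names with at least 50 reads and 1.36 with the upper quartile, where it lay on the other side of 1. It was 0.812 with TMM, 0.810 with 1 added to the scaled values and 0.807 with summed names. The log2 ratio of miR-451 minus that of miR-144, -0.79, was -0.41 with all names of each stem summed, which brings in miR-144*. Leaving out names spelled mir changed nothing in the strand shares of miR-144 and miR-486, and gives no value for miR-451. Over the whole table the 146 lower names became 95 with the upper quartile and 275 by fold alone. The 104 higher names became 223 with the upper quartile, 236 by fold alone, 61 with the whole interval beyond 2-fold and 62 with at least 50 reads. The cause of the difference under upper-quartile scaling was not tested. No paired analysis was possible because each line has 1 library, and no library could be left out. Counting error limits mir-451* and miR-363, while for the abundant members the unknown spread between libraries is the limit.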

Other observations

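Some markers of other blood cells stood beside the erythroid miRs in both lines. Of the 6 miRs of this list 4 were found, while miR-150 and miR-155, the markers of lymphocytes, are not listed under those names. MiR-142-3p, a miR of all leukocytes, had 507475 reads in K562/ADM and 351692 in K562, and its ratio of 1.77 (95% interval 1.76 to 1.77) was below 2-fold. The other strand, miR-142-5p, had 9588 reads in K562/ADM and 10380 in K562, a ratio of 1.13 (1.10 to 1.16). MiR-126, known from endothelium and early progenitors, had 18177 reads in K562/ADM and 38960 in K562, a ratio of 0.571 (0.561 to 0.582), while its other strand miR-126* was at 1.19 (1.17 to 1.22). The name mir-126* had 26 reads in K562/ADM and 45 in K562, at 0.708 (0.419 to 1.17). MiR-146a, a miR of innate immune signalling, was called higher, 10.1-fold (8.86 to 11.7), from 1971 reads in K562/ADM and 238 in K562. Of the 9 names found, 0 were called lower and 1 higher, against 15.6% of all names called lower and 11.1% called higher. Those of miR-223 also stand in the list of early precursors. MiR-142-3p was also called higher under the upper quartile. The 8 names with 10 or more reads had a median log2 ratio of 0.01, with 4 above and 4 below equality, and it ranged from -0.13 to 0.75 over the scalings. The part of these miRs in the ratios of the erythroid members was not tested.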
